A study of Homo sapiens with 3 samples.

Results

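The 10 genes described here make, carry, sense or break down prostaglandins: PTGS1, PTGS2, PTGDS, PTGES, PTGES2, PTGES3, SLCO2A1, PTGER2, PTGER4 and HPGD. They were taken by their symbols, and all 10 were found among the 36601 genes of the count tables. The members were selected on the measured levels of PTGDS, which was lower in D44 than in D32, so the differences between days are given as descriptions, with no test, and tests are kept for comparisons between cells of the same libraries.

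Melanocytes induced from human pluripotent stem cells were profiled as 3 droplet libraries, 1 for each day of induction: D23, D32 and D44. Embryoid bodies were grown in a medium with L-Wnt3a conditioned medium, SCF, Endothelin-3, bFGF, dexamethasone, cholera toxin, TPA, ascorbic acid, linoleic acid with albumin, and insulin, transferrin and selenium, then plated on fibronectin and later passaged with serum and without TPA, and cells were frozen before library preparation. The labels give the same protocol for the 3 days and do not say which of these steps each library had passed, so the day and the culture step cannot be told apart. D32 and D44 came from 1 induction and 1 sequencing batch and D23 from its own, so for D23 the day, the induction and the batch cannot be told apart. The labels conflict on the starting cells, naming induced pluripotent stem cells in the titles and H9, an embryonic stem cell line, in the source fields.

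Prostaglandins are lipid signals made from arachidonic acid. The cyclooxygenases PTGS1 and PTGS2 make the common precursor, prostaglandin H2, from which PTGDS makes prostaglandin D2 and the PTGES enzymes make prostaglandin E2, which acts through receptors such as PTGER2 and PTGER4. SLCO2A1 takes prostaglandins up and HPGD oxidises them to inactive forms, and in skin prostaglandin E2 is known to act on pigment cells.

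Cells were sorted into classes by the summed CPM (counts per 1000000 UMIs, where a UMI is 1 counted RNA molecule) of marker genes, none of which is 1 of the 10. A melanocyte-like cell had at least 1000 CPM of PMEL, MLANA, TYRP1, DCT, TYR, MITF and TRPM1 together and less than 1000 CPM of each other list. Mesenchymal-like and neural-like cells were taken in the same way from lists led by collagens and by neural genes, save that neural-like cells had no upper limit for the mesenchymal list. The median neural-like cell had 2261, 1198 and 1321 CPM of the mesenchymal list in D23, D32 and D44. These 2 classes are thus told apart by the neural list and not by the mesenchymal one. Melanocyte-like cells numbered 2367 in D23, 5537 in D32 and 5749 in D44, which was 62.4%, 91.9% and 98.9% of the cells kept. There were 317, 285 and 18 mesenchymal-like and 868, 84 and 3 neural-like cells. All 7 melanocyte markers stood above 1 CPM in the melanocyte-like cells of every library, led by PMEL at 1751, 4948 and 4885 CPM. Median UMIs per melanocyte-like cell were 12800, 36679 and 42961, and pairs of libraries shared 9 to 28 barcodes. The levels below are CPM of UMIs summed over the cells of a class, and all intervals are 95% intervals that cover counting error only.

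PTGDS lay on chromosome 9 (chr9:136975092-136981742, plus strand) and HPGD on chromosome 4 (chr4:174490175-174523154, minus strand) in GENCODE gene models of GRCh38. HPGD overlapped an antisense long noncoding RNA over 538 bases, and PTGDS overlapped a protein-coding model on its own strand over 4225 bases that is not among the counted genes. The 250 bases before the start that RefSeq gives for PTGDS and HPGD are printed here (GRCh38.p14, chr9:136977254-136977503 on the plus strand and chr4:174522489-174522738 on the minus strand). They were chosen because both genes were higher in cells with a higher summed CPM of the melanocyte markers, as described below. Both stretches lie inside the GENCODE gene models given above, so the counts of sites in them hold for that RefSeq start alone. Capitals mark each CANNTG, the general site of basic helix-loop-helix factors such as MITF.
PTGDS: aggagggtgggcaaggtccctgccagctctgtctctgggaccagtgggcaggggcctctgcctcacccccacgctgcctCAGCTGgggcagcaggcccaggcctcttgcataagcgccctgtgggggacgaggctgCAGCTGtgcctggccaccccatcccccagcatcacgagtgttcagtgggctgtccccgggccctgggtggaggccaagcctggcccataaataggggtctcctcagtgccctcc
HPGD: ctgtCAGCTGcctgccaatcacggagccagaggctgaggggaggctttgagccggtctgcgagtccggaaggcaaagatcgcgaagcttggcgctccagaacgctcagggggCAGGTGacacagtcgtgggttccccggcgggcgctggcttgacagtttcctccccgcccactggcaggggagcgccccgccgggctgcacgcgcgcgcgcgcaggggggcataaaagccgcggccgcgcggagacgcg
CANNTG reads the same on both strands, and each of these promoters held it 2 times. Its first base lay 171 and 114 bases before the start in PTGDS, and 246 and 138 bases before it in HPGD. Of 35116 RefSeq promoters of the same length, 61.8% held CANNTG. Neither promoter held CATGTG or CACGTG, the forms MITF is best known to bind (searched on both strands, and both contained in CANNTG), which 9.42% and 6.34% of all promoters held. Of the 9 members matched in RefSeq, PTGS2 alone held CATGTG, 55 bases before its start. The PTGDS promoter had 5 CpG and the HPGD promoter 29, against a median of 11 over all promoters. A match describes the letters and is not evidence of a bound site.

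The cyclooxygenases were close to undetected in these cells. PTGS1, the constitutive enzyme, had 0, 8 and 7 UMIs in the melanocyte-like cells of D23, D32 and D44, which was at most 0.0358 CPM, and a count of 0 in D23 allows up to 0.0937 CPM. PTGS2, the inducible enzyme, had 4, 93 and 148 UMIs, or 0.125, 0.416 and 0.560 CPM. A PTGS2 UMI was seen in 2.38% of the D44 melanocyte-like cells, and in 0.348% when each cell was thinned to 5000 UMIs. In mesenchymal-like cells PTGS2 stood at 1.77, 4.09 and 0 CPM (7, 41 and 0 UMIs), and in neural-like cells it had a single UMI in all. The 18 mesenchymal-like cells of D44 were too few to show PTGS2 at its D32 level, since a count of 0 there allows up to 5.06 CPM.

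PTGDS, the prostaglandin D synthase known from brain coverings, retina and pigment cells, stood in melanocyte-like cells at 266 CPM in D23 (interval 261 to 272), 120.4 CPM in D32 (118.9 to 121.8) and 8.44 CPM in D44 (8.09 to 8.80), from 8522, 26887 and 2229 UMIs. Each day was below the day before it, with intervals far apart. D44 was 14.3-fold below D32 (log2 -3.83, interval -3.90 to -3.77) and D32 was 2.21-fold below D23 (log2 -1.15, interval -1.18 to -1.11). Among the 12678 genes at 1 CPM or more in D44 or D32, 11 had a lower ratio of D44 over D32 than PTGDS, where 2.14% of genes were at least 2-fold lower and the median gene differed by -0.03 on the log2 scale. In the step from D23 to D32, 1399 of 13385 genes had a lower ratio than PTGDS, where 13.3% of genes were at least 2-fold lower and the median gene differed by -0.15. PTGDS was chosen for its D44 level, and these places in the order are no test.

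PTGDS was unevenly spread over single cells. Before any correction for depth, which was lowest in D23, the median melanocyte-like cell had 113 PTGDS CPM in D23, 14.0 in D32 and 0 in D44, and the highest 1% of cells began at 1986, 1386 and 202 CPM. The highest 10% of cells held 49.2%, 65.4% and 96.2% of the PTGDS UMIs. Such a share also climbs where counts are few, and was 100% for the 2 HPGD UMIs of D23. A PTGDS UMI was seen in 64.5%, 50.9% and 11.5% of melanocyte-like cells as deposited, and in 47.7%, 25.3% and 3.20% of them at 5000 UMIs per cell. In mesenchymal-like cells the shares were 20.2%, 17.9% and 11.1% as deposited, at a median of 11893, 32913 and 34159 UMIs, and 12.6%, 5.26% and 5.56% thinned. The thinned D44 share of melanocyte-like cells was not above that of the 18 mesenchymal-like cells, of which 1 had a UMI (interval 0.141% to 27.3%), and no expression is read from that share alone.

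**Figure D1:**
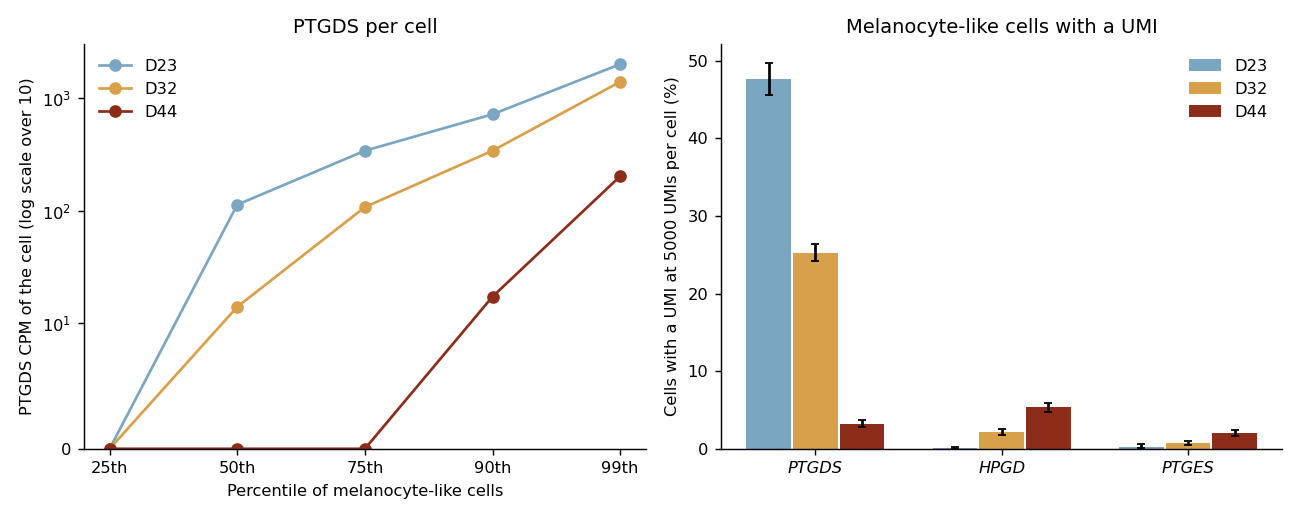
PTGDS over melanocyte-like cells of D23, D32 and D44. Left, PTGDS CPM of the cell at 5 percentiles of the cells. Right, the percentage of cells with a UMI of PTGDS, HPGD or PTGES at 5000 UMIs per cell, with exact binomial 95% intervals: PTGDS steps down to 3.20% in D44 while HPGD and PTGES step up to 5.32% and 2.00%.

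The other classes also held PTGDS. Mesenchymal-like cells had 34.2, 19.4 and 15.2 CPM (135, 194 and 9 UMIs), and neural-like cells had 94.6, 285 and 107 CPM (1063, 569 and 13 UMIs). In mesenchymal-like cells D32 stood at 0.566 times D23 (interval 0.452 to 0.710) and D44 at 0.785 times D32 (0.354 to 1.52), so the second step was within counting error. In neural-like cells D32 stood at 3.01 times D23 (2.71 to 3.33) and D44 at 0.376 times D32 (0.199 to 0.647). The D32 neural-like level rested on few cells, since 5 of the 84 cells held 55.2% of its UMIs, and all 13 UMIs of D44 came from 1 cell. In order of level, neural-like cells of D32 and melanocyte-like cells of D23 came first, with intervals that overlapped (262 to 309 and 261 to 272 CPM). Melanocyte-like cells of D32, neural-like cells of D44 and those of D23 followed, and the wide D44 interval (56.9 to 183 CPM) overlapped both others. Mesenchymal-like cells of the 3 days came next, and their wide D44 interval (6.95 to 28.8 CPM) overlapped those of D23 and D32. Melanocyte-like cells of D44 came last, with an interval inside that of the mesenchymal-like cells of D44.

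Free RNA was gauged through PMEL, which mesenchymal-like cells held at 3.17%, 1.10% and 1.87% of its melanocyte-like level. At the same share PTGDS would stand at 8.43, 1.32 and 0.158 CPM in them, below the 34.2, 19.4 and 15.2 CPM found. In neural-like cells PTGDS stood at 6.38 times the level so carried in D23 and 62.4 times in D32. Markers of other cell types known to hold PTGDS were summed in the melanocyte-like cells. The leptomeningeal list, with UMIs for 4 of 5 genes and SLC22A6 at 0, summed to 48.4, 3.27 and 0.640 CPM, of which CRABP2 gave 46.9, 2.77 and 0.193 CPM. The retinal pigment epithelium list of 6 genes summed to 149.8, 264 and 131 CPM, of which SERPINF1 gave 134, 252 and 123 CPM, with RPE65 at 0, 0.0358 and 0.0644 CPM. The Schwann or glial list had all 6 genes above 1 CPM and summed to 1364, 1178 and 1468 CPM. The leptomeningeal list summed to more in the other classes, at 214, 112 and 57.4 CPM in mesenchymal-like cells. In neural-like cells it summed to 183, 85.5 and 148 CPM. The other 2 lists summed to less in both classes than in melanocyte-like cells on every day. In neural-like cells the Schwann or glial list stood at 167, 620 and 567 CPM. The D44 sums rest on 18 mesenchymal-like and 3 neural-like cells. The part of these lists in the PTGDS levels was not tested.

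The prostaglandin E synthases did not share the course of PTGDS. PTGES, the inducible enzyme, stood in melanocyte-like cells at 0.656, 1.67 and 4.07 CPM (21, 373 and 1076 UMIs), each day above the one before. D44 was 2.44-fold above D32 (log2 1.29, interval 1.12 to 1.46), with 12549 of the 12678 genes at a lower ratio and 1.44% of genes at least 2-fold higher. D32 was 2.55-fold above D23 (log2 1.35, interval 0.71 to 2.06), where 4.95% of genes were at least 2-fold higher. Mesenchymal-like cells had 0.507, 3.39 and 40.5 PTGES CPM, the last from 24 UMIs in 5 cells, and neural-like cells had 4.00, 7.00 and 24.7 CPM. A PTGES UMI was seen in 0.845%, 6.39% and 15.7% of melanocyte-like cells, or 0.256%, 0.686% and 2.00% of them at 5000 UMIs. The thinned shares were higher in the neural-like cells of D23 and D32 (1.52% and 3.57%), so the melanocyte-like shares are not read as expression on their own.

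PTGES2 and PTGES3 were expressed throughout. PTGES2, a synthase tied to the Golgi membrane, stood at 60.9, 104 and 94.6 CPM in melanocyte-like cells, 42.6, 78.5 and 70.9 CPM in mesenchymal-like cells and 31.8, 83.0 and 123 CPM in neural-like cells. In melanocyte-like cells its D44 level was close to that of D32 (log2 -0.14, interval -0.16 to -0.11), and D32 was above D23 (log2 0.78, interval 0.71 to 0.84). PTGES3, the p23 co-chaperone of HSP90, which also has synthase activity, had the highest CPM of the 10 genes in every class and library. It stood at 429, 464 and 519.6 CPM in melanocyte-like cells, 454, 632 and 408 CPM in mesenchymal-like cells and 392, 492 and 345 CPM in neural-like cells. Its day steps in melanocyte-like cells were small (log2 0.16 for D44 over D32 and 0.11 for D32 over D23).

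The uptake carrier SLCO2A1 and the receptors PTGER2 and PTGER4 were nearly silent in the melanocyte-like cells. SLCO2A1 had 1 UMI in all classes and libraries together, in a D23 melanocyte-like cell. PTGER2, an E2 receptor that raises cyclic AMP, had 2, 8 and 0 UMIs in melanocyte-like cells, 3, 61 and 2 in mesenchymal-like cells and 28, 6 and 0 in neural-like cells. PTGER4, a receptor of the same kind, had 4, 7 and 9 UMIs in melanocyte-like cells, 9, 5 and 2 in mesenchymal-like cells and 46, 2 and 0 in neural-like cells. Scaled to CPM the distance was wide, since PTGER2 of D32 stood at 0.0358 CPM in melanocyte-like cells and 6.09 CPM in mesenchymal-like cells, and PTGER4 of D23 at 0.125 CPM in melanocyte-like cells and 4.09 CPM in neural-like cells. PTGER4 lies wholly within TTC33 on the opposite strand, and how strand was used in counting was not checked.

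HPGD, the enzyme that inactivates prostaglandins, took the opposite course to PTGDS in melanocyte-like cells. It had 2 UMIs in D23 (0.0625 CPM, interval 0.00757 to 0.226), 1075 in D32 (4.81 CPM, 4.53 to 5.11) and 3292 in D44 (12.5 CPM, 12.0 to 12.9). The 3 days were far apart. D44 was 2.59-fold above D32 (log2 1.37, interval 1.27 to 1.47), with 12564 of the 12678 genes at a lower ratio, and D32 was above D23 by log2 6.27 (interval 4.41 to 9.31). An HPGD UMI was seen in 0.0845%, 11.8% and 25.2% of melanocyte-like cells, and in 0.0427%, 2.15% and 5.32% of them at 5000 UMIs. Neural-like cells held 0 HPGD UMIs in every library, at a median of 12651.5, 21903.5 and 30306 UMIs per cell, which allows up to 0.267 CPM in D23 and 24.7 CPM in D44. Mesenchymal-like cells stood at 0, 5.89 and 16.9 CPM (0, 59 and 10 UMIs), above the melanocyte-like levels of D32 and D44, with 27 of the D32 UMIs in 1 cell and the 10 of D44 in 2 cells. Their thinned shares of cells with an HPGD UMI were 0%, 1.75% (interval 0.572% to 4.05%) and 5.56% (0.141% to 27.3%), so the melanocyte-like shares are not read as expression on their own.

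**Figure D2:**
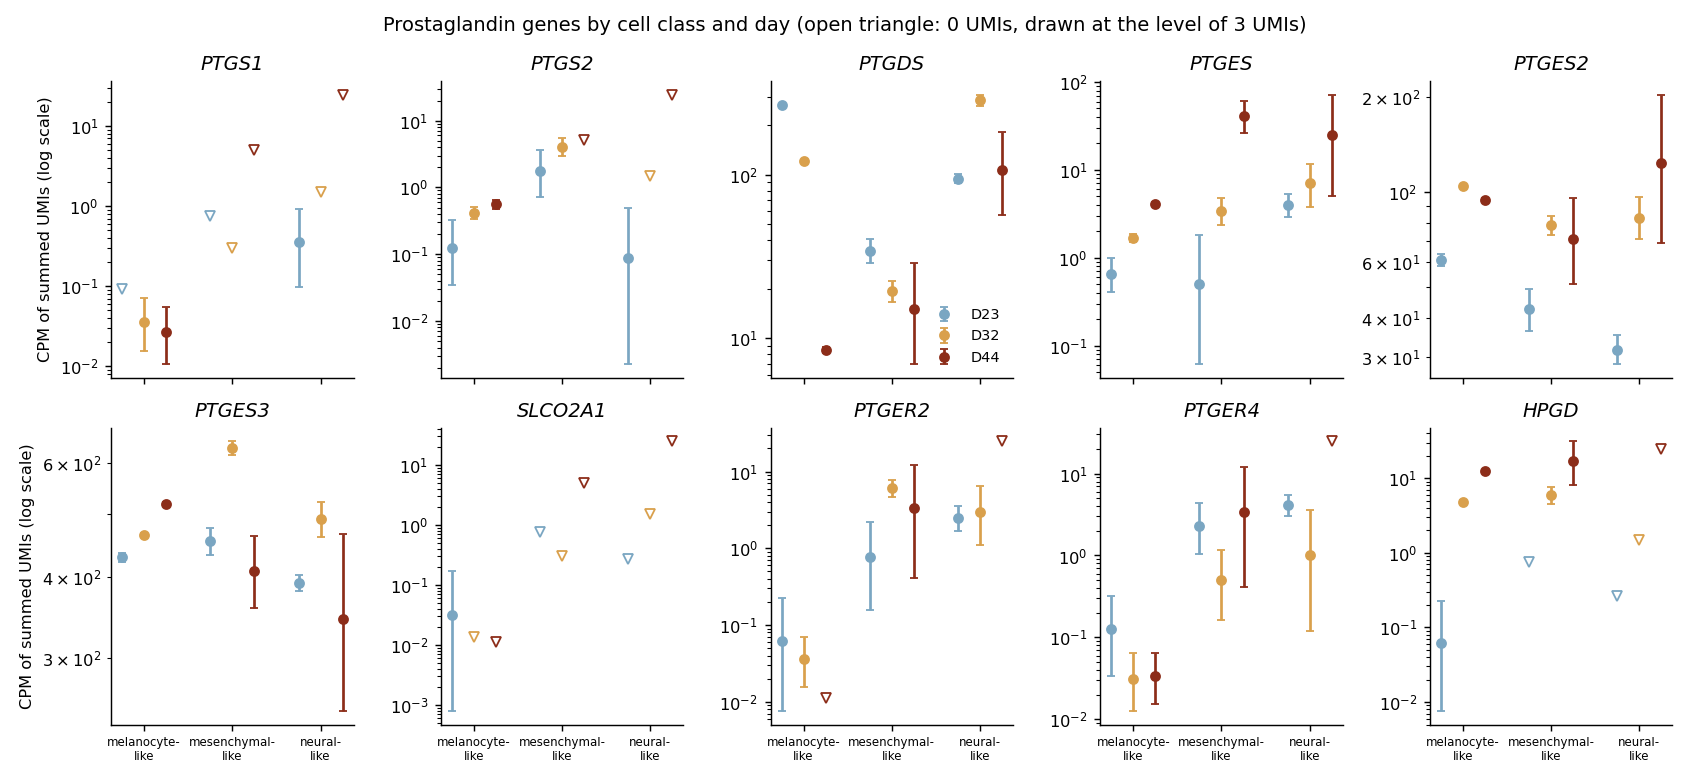
CPM of the 10 genes (log axes) by cell class and day, as points with exact Poisson 95% intervals. Open triangles mark a count of 0, drawn at the level of 3 UMIs. PTGDS steps down over the days in melanocyte-like cells while HPGD and PTGES step up, and PTGER2 and PTGER4 lie lowest in melanocyte-like cells.

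Which genes set melanocyte-like cells apart from the mesenchymal-like cells of the same libraries was tested with the library as a block (edgeR quasi-likelihood test, Benjamini-Hochberg adjustment over 15381 genes). Of 8 members that passed the filter on low counts, 1 was called higher and 3 lower in melanocyte-like cells, where 10.1% of all genes were higher and 10.9% lower. The 3 lower ones, PTGS2, PTGER2 and PTGER4, passed that filter through the other classes, which fixed their direction, so they are described by the UMIs and CPM above and no p is given. PTGES2 differed by log2 0.54 ± 0.15 (SE; edgeR adjusted p = 0.0454) and was higher in all 3 libraries. In D44 it was higher within counting error (log2 0.42, interval -0.02 to 0.89). It did not pass without D23 (edgeR adjusted p = 0.224), without D32 (0.288) or without D44 (0.110).

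PTGDS did not pass in this comparison. Melanocyte-like cells had 266 CPM against 34.2 CPM in mesenchymal-like cells in D23, 120.4 against 19.4 CPM in D32, and 8.44 against 15.2 CPM in D44. They were thus 7.78-fold higher in D23 and 6.22-fold higher in D32. In D44 they were 1.80-fold lower, which was within counting error (log2 -0.85, interval -1.78 to 0.28). The mesenchymal-like level of D44 rested on 9 UMIs, 8 of them in 1 cell. The fitted difference was log2 2.35 ± 0.74 (edgeR adjusted p = 0.0636). It passed when any 1 library was left out, at 1.70 without D23 (edgeR adjusted p = 1.65e-05), 1.78 without D32 (3.44e-04) and 2.85 without D44 (0.0325). Without D23 or D32 the difference was smaller although the p was lower. Each such fit estimates the variance anew from fewer sums, so the lower p is not read as stronger evidence. HPGD (log2 -0.16, edgeR adjusted p = 0.835), PTGES (-1.56, 0.120) and PTGES3 (0.03, 0.951, with the sign turned by DESeq2 and by scaling with total UMIs) did not pass either. PTGES did without D23 (-2.05, edgeR adjusted p = 0.00236). The log2 ratio of PTGES was 0.37 in D23, -1.02 in D32 and -3.31 in D44. In D44 the mesenchymal-like cells had 24 PTGES UMIs, 11 of them in 1 cell.

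Neural-like cells entered the fit from D23 and D32 alone because D44 held 3. Of the 8 members, 2 were called higher and 3 lower in melanocyte-like than in neural-like cells, where 9.82% of all genes were higher and 13.0% lower. PTGER2, PTGER4 and HPGD are again given as descriptions with no p, since they passed the filter through the class where they were high. HPGD stood at 4.81 CPM in the melanocyte-like cells of D32, against 0 UMIs in the neural-like cells of D32. With 3 UMIs as the floor this was at least 3.21-fold higher. In D23 the melanocyte-like cells held 2 HPGD UMIs and the neural-like cells 0, so D23 shows no difference either way. PTGES stood at 0.656 CPM in melanocyte-like and 4.00 CPM in neural-like cells of D23, and at 1.67 and 7.00 CPM in those of D32 (log2 -2.54 ± 0.66, edgeR adjusted p = 0.0312). PTGES2 differed by 0.83 ± 0.18 (edgeR adjusted p = 0.0163). PTGES2 did not pass without D23 (edgeR adjusted p = 0.349) or without D32 (0.113), where the neural-like cells are a single sum that is assumed to vary like the others.

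PTGDS had no common direction against neural-like cells, at log2 1.49 in D23 and -1.24 in D32, and the fitted difference was -0.05 (edgeR adjusted p = 0.971). Without D23, when the neural-like cells are the single D32 sum of 84 cells, the fit gave -1.42 (edgeR adjusted p = 2.88e-04), which rests on the few cells named above. PTGES3 (0.34, 0.356) and PTGS2 (1.75, 0.477) did not pass.

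Cells in division were compared with the other melanocyte-like cells of their library. Cycling cells, with at least 1000 CPM of 8 genes such as MKI67 and TOP2A, made up 25.7%, 30.1% and 33.9% of the class in D23, D32 and D44. PTGDS stood at 161, 70.4 and 4.81 CPM in cycling cells, against 311, 148 and 10.8 CPM in the other cells of these days. It was lower in the cycling cells of every library, by similar ratios (log2 -0.95, -1.08 and -1.16), and the fitted difference was -1.05 ± 0.04 (edgeR adjusted p = 1.25e-10, 17707 genes tested). PTGES3 took the other direction, at 541, 584 and 632 CPM in cycling cells and 382, 397 and 448 CPM in other cells (log2 0.52 ± 0.03, edgeR adjusted p = 4.04e-08).

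HPGD and PTGES were lower in cycling cells by smaller steps that rested on D44. HPGD stood at 4.62 CPM in cycling and 4.92 CPM in other cells of D32, and at 10.0 and 14.0 CPM in those of D44 (log2 -0.33 ± 0.09, edgeR adjusted p = 0.00983). PTGES stood at 0.733 CPM in cycling against 0.623 CPM in other cells of D23, 1.48 against 1.78 CPM in D32 and 3.26 against 4.60 CPM in D44 (log2 -0.39 ± 0.11, edgeR adjusted p = 0.0118). Without D44 neither passed (edgeR adjusted p = 0.734 for HPGD and 0.522 for PTGES). In all, 1 member was higher and 3 were lower of 6 tested, where 20.6% of all genes were higher and 23.2% lower. PTGES2 (log2 -0.02, edgeR adjusted p = 0.678) and PTGS2 (-0.54, 0.101) did not pass, and PTGS2 did without D32 (-0.90, 0.0400).

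Melanocyte-like cells were last split, within each library, into 3 equal groups by their pigment marker CPM. The highest group, called pigment-high, was set against the lowest, called pigment-low. PMEL gave the largest part of the marker sum, at 1751 of 4121 CPM in D23, 4948 of 10185 in D32 and 4885 of 12026 in D44. PTGDS stood at 445 CPM in pigment-high and 141 CPM in pigment-low cells of D23, at 189 and 64.1 CPM in those of D32 and at 13.6 and 4.46 CPM in those of D44. The pigment-high cells stood above the pigment-low cells by similar ratios in the 3 libraries (log2 1.66, 1.56 and 1.61), although the levels themselves differed widely. The fitted difference was 1.64 ± 0.04 (edgeR adjusted p = 6.31e-05, 17338 genes tested). HPGD stood at 9.38 CPM in pigment-high and 1.64 CPM in pigment-low cells of D32, and at 28.0 and 2.16 CPM in those of D44, with 1 UMI and 0 UMIs in D23. It had the largest fitted difference of the 6 members tested (log2 3.21 ± 0.25, edgeR adjusted p = 9.83e-04), which was 2.58 without D44 and 3.73 without D32. PTGES3 was lower in pigment-high cells, at 389 CPM against 471 CPM in pigment-low cells of D23, 401 against 521 CPM in D32 and 441 against 588 CPM in D44 (log2 -0.32 ± 0.04, edgeR adjusted p = 0.00461, and 0.0527 without D32).

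In this split 2 members were higher and 1 lower of 6 tested, where 9.41% of all genes were higher and 10.0% lower. PTGES (log2 0.25, edgeR adjusted p = 0.271), PTGES2 (-0.00, 0.979) and PTGS2 (-1.05, 0.166) did not pass, and PTGS2 did without D23 (-1.27, 0.0198). Fewer pigment-high than pigment-low cells were cycling (15.7% and 38.3% in D23, 20.9% and 40.0% in D32, 20.5% and 44.9% in D44), at median depths of 12372 and 13383, 36254 and 36702.5, and 42893 and 42989 UMIs. Among cells that were not cycling, PTGDS was still higher in pigment-high cells in each library (log2 1.59, 1.53 and 1.17), as was HPGD in D32 and D44 (2.83 and 3.91), and PTGES3 was lower (-0.17, -0.33 and -0.36). Among cycling cells PTGDS was higher by 1.27, 1.01 and 2.07.

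**Figure D3:**
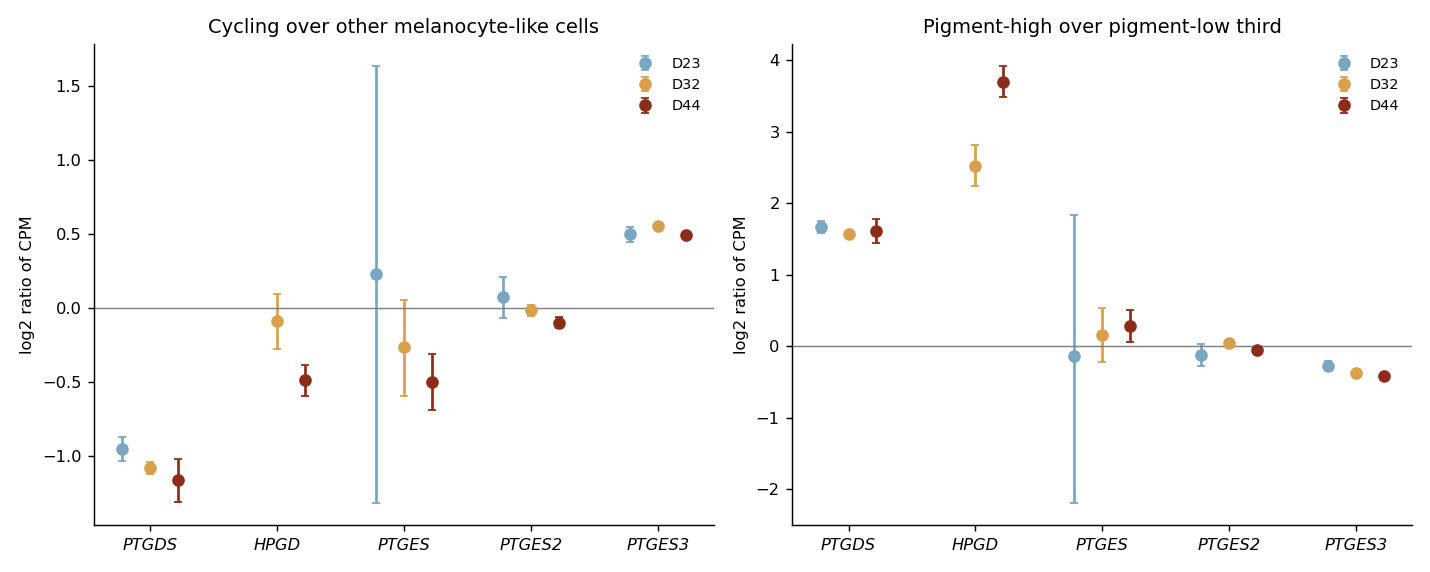
log2 ratios of CPM within the melanocyte-like cells of each library, with exact 95% intervals for counting error. Left, cycling over other cells. Right, pigment-high over pigment-low cells. In all 3 libraries PTGDS lies below 0 on the left (-0.95 to -1.16) and above 0 on the right (1.56 to 1.66).

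To set the days side by side at like pigment levels, melanocyte-like cells were also placed in fixed ranges of marker CPM, which were chosen after seeing the data. In cells of 1000 to 5000, 5000 to 10000, 10000 to 15000 and at least 15000 marker CPM, PTGDS of D44 stood at 5.03, 4.24, 8.06 and 14.3 CPM, against 59.8, 85.5, 127 and 261 CPM in D32. D44 was below D32 in each of the 4 ranges, by 11.9-fold, 20.2-fold, 15.8-fold and 18.2-fold. The D23 cells of the first 3 ranges had 192, 425 and 726 PTGDS CPM, and the last range held only 13 D23 cells. HPGD of D44 stood at 1.12, 3.04, 8.49 and 30.7 CPM in the 4 ranges, against 0.735, 2.45, 5.49 and 13.8 CPM in D32. HPGD was higher with each range in both libraries, and D44 stood above D32 by 1.52-fold, 1.24-fold, 1.55-fold and 2.23-fold, the first of which was within counting error. PTGES3 was lower with each range in D44, at 629.8, 572, 514 and 434 CPM.

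**Figure D4:**
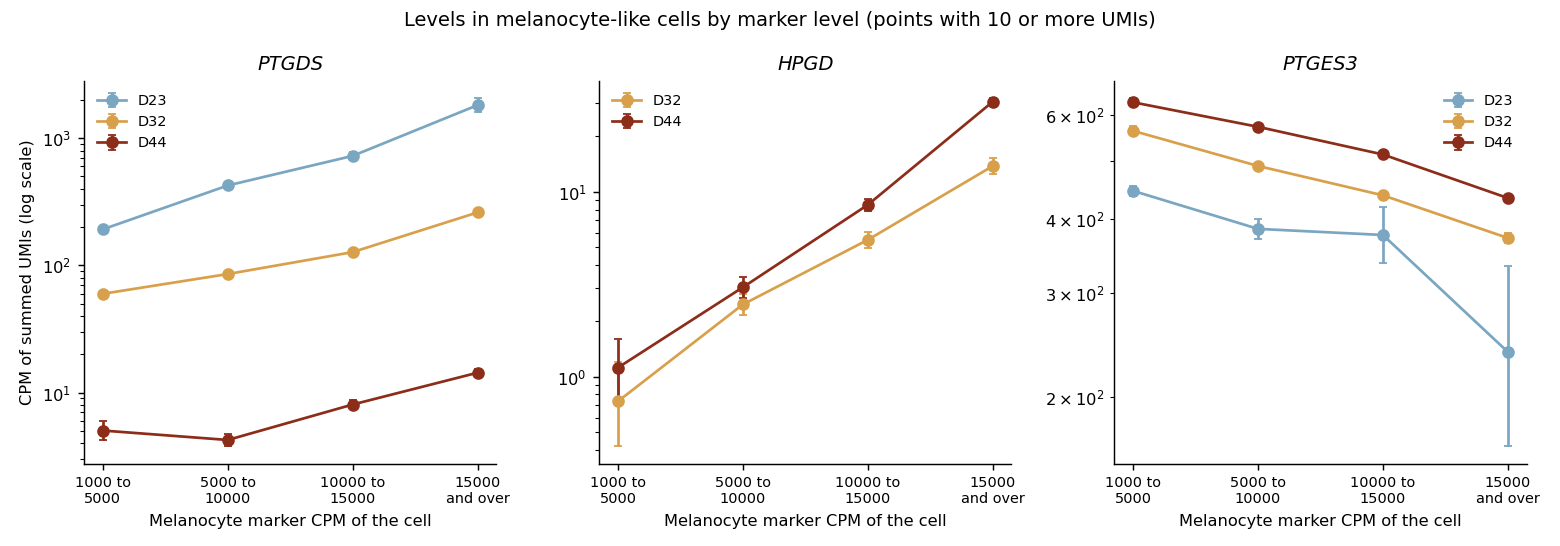
CPM (log axes, points with 10 or more UMIs) of PTGDS, HPGD and PTGES3 in melanocyte-like cells by the melanocyte marker CPM of the cell, for each library, with exact Poisson 95% intervals. In D44 and D32 HPGD climbs and PTGES3 declines along the axis, and PTGDS of D44 lies below that of D32 throughout.

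The genes whose counts followed PTGDS most closely over the 5537 melanocyte-like cells of D32, among 4862 genes and at 5000 UMIs per cell, were APOE (r = 0.26), a lipid carrier, SERPINF1 (0.24), which encodes a secreted serpin, PMEL (0.21), which encodes the fibril protein of melanosomes, SAT1 (0.20), an enzyme of polyamine breakdown, and IGFBP7 (0.17), a secreted binding protein. In D23 their r with PTGDS was 0.24, 0.19, 0.23, 0.19 and 0.14, and in D44 it was 0.10, 0.08, 0.07, 0.08 and 0.05. The cells share their library, and sparse counts keep r low, so these are descriptions with no test. The other melanocyte markers followed PTGDS less closely than PMEL in D32. TYR, DCT, MLANA, TRPM1 and MITF had r = 0.13, 0.11, 0.10, 0.09 and 0.06 with it, and TYRP1 had -0.02. In D23 MITF had -0.03 and TYRP1 0.09, and in D44 MITF had 0.03 and TYRP1 -0.02. Among the members, PTGES3 had r = -0.12 and HPGD 0.08 with PTGDS in D32. An HPGD UMI was seen in 3.71% of the D32 cells with a PTGDS UMI and 1.62% of those without, and in 12.0% and 5.10% of those of D44, all at 5000 UMIs per cell.

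The wider pathway was read from a list of 29 other genes. Against mesenchymal-like cells, 6 of 22 tested genes were higher and 6 lower in melanocyte-like cells by edgeR, with a median log2 difference of -0.13, beside 0.10 for all genes, of which 10.1% were higher and 10.9% lower. Genes near 0 in one class passed the filter through another, so the counts are descriptions. PLA2G4A, the phospholipase that frees arachidonic acid, stood at 19.6, 21.5 and 17.6 CPM in melanocyte-like cells against 4.81, 2.49 and 6.75 CPM in mesenchymal-like cells (log2 2.43, edgeR adjusted p = 0.00601). The others that were higher were CBR3 (2.56) and CBR4 (0.82), carbonyl reductases, ZADH2 (1.12), a prostaglandin reductase, FAAH (2.37), a fatty acid amide hydrolase, and PRXL2B (1.38), a prostaglandin F synthase. The 6 lower ones included PTGER3, a further E2 receptor, with 0, 2 and 0 UMIs in melanocyte-like cells against 12, 12 and 1 in mesenchymal-like cells. MGLL, which breaks down monoglycerides (-4.95), PPARG, a nuclear receptor (-4.24), the aldo-keto reductases AKR1C1 (-3.50) and AKR1C2 (-1.94), and ANXA1, an annexin known as an inhibitor of phospholipase A2 (-2.21), were the others.

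Against neural-like cells 6 of the 22 tested were higher and 3 lower (median 0.25, beside 0.10 for all genes, of which 9.82% were higher and 13.0% lower). PLA2G4A (log2 4.09), TBXA2R, the thromboxane receptor (3.73), CBR3 (3.13), PRXL2B (1.95), ZADH2 (0.92) and AKR1B1, an aldo-keto reductase (0.84), were higher, and PPARG (-5.70) and MGLL (-4.79) were lower by edgeR. Here too a gene near 0 in one class could pass the filter through another, which fixes its direction. The counts and fitted differences are therefore descriptions. The other gene called lower, PTGER3, had 6 UMIs in neural-like cells and is not read as a difference. Between cycling and other cells 3 of 21 were higher (CBR3 0.81, ZADH2 0.50, AKR1B1 0.10) and 3 lower (AKR1C3 -0.86, PTGIS -0.59, CBR4 -0.17), with a median of -0.08, beside -0.03 for all genes, of which 20.6% were higher and 23.2% lower. Between pigment-high and pigment-low cells 2 of 22 were higher (CBR1 0.38, CBR4 0.24) and 3 lower (MGLL -0.99, ANXA1 -0.84, ZADH2 -0.32), with a median of 0.04, beside -0.00 for all genes, of which 9.41% were higher and 10.0% lower. HPGDS, the other prostaglandin D synthase, and PTGDR, a prostaglandin D2 receptor, had 0 UMIs in the melanocyte-like cells of every library, and PTGDR2, another such receptor, had 3, 5 and 6 UMIs.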

How the data were processed

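The 3 libraries were analysed from the raw UMI counts (1 value for each barcode and gene) that the authors deposited, made with Cell Ranger 6.1.2 on GRCh38 (hg38 in the labels) and not normalized. They held 53298735 UMIs and 5585 barcodes in D23, 268339312 and 8927 in D32, and 280879346 and 8010 in D44. The study's own filter of cells was applied (genes over 1000 and under 7000 in D23, over 3000 and under 9000 later; UMIs over 500 and under 50000 in D23, under 100000 later; at most 10% mitochondrial), which left 3796, 6023 and 5811 cells. Scrublet in scanpy 1.11.5 called 58, 430 and 372 doublets, which were kept except in 1 alternative; its threshold was automatic in D23 and the expected share in the others.

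Marker gates of 1000 CPM were set after seeing the data, and among the kept cells of D23, D32 and D44, 119, 16 and 23 lay within 20% of the limit of the melanocyte list, 221, 65 and 6 within that of the mesenchymal list, and 52, 31 and 3 within that of the neural list, on either side of it. For shares of cells, 5000 UMIs were drawn per cell, leaving out 27 shallower melanocyte-like cells of D23. UMIs were summed per library and class (at least 10 cells) and tested with edgeR 4.0.16 in R 4.3.3 (quasi-likelihood, TMM, filterByExpr, the library as a block, threshold 0.05). The library pairs the sums, since they come from the same droplets. Cells were not replicates. A single library stands for each day. The p-values measure how far the difference within a library varied between libraries (D23 and D32 alone for neural-like cells). The fits had 2 or 3 residual degrees of freedom, and edgeR moderates the variance of a gene with that of all genes. D32 and D44 came from 1 induction, so the libraries are not independent inductions. The tests and intervals were tried on simulated data with known folds. For the tests every simulated gene had the same spread between libraries, so spread that differs by gene was not checked. A difference that missed the threshold is not shown to be absent. Ratios of days carry exact conditional intervals, and levels exact Poisson ones.

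The members and lists were chosen with earlier results of these data known. Named genes are all 10 members, genes of the pathway list that passed a test, and the 5 genes with the highest correlation with PTGDS in D32. Alternatives were DESeq2 1.42.0, scaling by total UMIs, no filter, no block, each library left out, thinned counts, doublets out, 1 cell filter, and other gates and splits.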

Additional observations from a re-analysis of the deposited data

Results flagged for a closer look

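PTGDS stood out because the order of melanocyte-like and neural-like cells turned between libraries. The log2 ratio of melanocyte-like over neural-like cells was 1.49 for D23, -1.24 for D32 and -3.66 for D44. Neural-like cells numbered 868, 84 and 3 on these days, and a single cell held all 13 of their PTGDS UMIs in D44. Whether the libraries differ was not tested.

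PTGES3 showed a smaller turn between melanocyte-like and mesenchymal-like cells, at a log2 ratio of -0.082 in the D23 library, -0.44 in the D32 library and 0.35 in the D44 library. The last rests on 18 mesenchymal-like cells with 242 PTGES3 UMIs, and this difference between libraries was not tested.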

How the results depend on the processing

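The ratio of PTGDS in D44 over D32 stayed between -4.19 and -3.69 on the log2 scale under the 10 alternatives, and moved by more than counting error with counts thinned to 5000 UMIs (-3.69), each cell weighted equally (-3.77) and the highest 1% of cells left out (-4.19). The other day ratios, with alternatives chosen after seeing the data, kept their direction in all 88 values.

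Genes called between melanocyte-like and mesenchymal-like cells numbered 3228, against 1875 with no replicate block, 2085 with thinned counts and 2015 to 3099 with 1 library left out (2015 without D32). Between melanocyte-like and neural-like cells they numbered 3505, against 2264 with no replicate block, 5337 with no filter on low counts, and 2164 (without D32) to 3540. Between cycling and other cells they numbered 7741, against 255 with no replicate block, 4574 thinned and 4923 (without D44) to 8210. Between pigment-high and pigment-low cells they numbered 3369, against 1 with no replicate block, 1986 thinned, and 937 (without D32) to 3976, with 1883 without D44. Scaling by total UMIs gave 1109 higher and 2302 lower against neural-like cells, beside 1510 and 1995, and 1317 and 2166 in the pigment split, beside 1631 and 1738.

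Of the 318 alternative values of the members, 243 kept direction and call, 39 lost the call, 12 gained it and 24 changed sign, all 24 where the main result had not passed. With no replicate block every call of a member in the cycling and pigment comparisons was lost. DESeq2 did not call HPGD (adjusted p = 0.200) or PTGES (0.274) in cycling cells. With thinned counts PTGES2 (0.0584) was not called against neural-like cells, nor HPGD and PTGES in cycling cells (0.163 and 0.807 by edgeR), and stricter and looser gates lost PTGES against neural-like cells (0.0691 and 0.0705 by edgeR). PTGDS against mesenchymal-like cells was called with no filter (adjusted p = 6.07e-14), with thinned counts (0.00613) and with the stricter gate (0.00163) by edgeR. PTGES2 against mesenchymal-like cells was lost under 8 of 12 alternatives and against neural-like cells under 5.

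The changes of sign were HPGD against mesenchymal-like cells (0.010 with no filter, 0.16 with no replicate block, 0.50 thinned, and -0.28 to 7.4e-04 with 1 library left out), PTGES3 against them (-0.073 by DESeq2, -0.065 scaled by total UMIs, -0.21 and -0.049 with the stricter and looser gate, -0.27 to 0.28 with 1 library left out), PTGDS against neural-like cells (0.080 with no filter, 0.19 thinned, 0.26 and 0.35 with the stricter and looser gate, -1.42 to 1.07 with 1 library left out), PTGS2 against them (-0.22 with the stricter gate), PTGES2 in cycling cells (-0.039 to 0.030 with 1 library left out) and PTGES2 in the pigment split (0.0043 by DESeq2, 6.5e-04 with no filter, 0.0066 with no replicate block, 2.2e-05 without doublets, 0.0094 with cells split at the median, -0.063 to 0.033 with 1 library left out). The cause was not tested. With 3 UMIs as the limit of a count of 0, the 18 mesenchymal-like and 3 neural-like cells of D44 allow up to 5.06 and 24.7 CPM of an unseen gene.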
